A study of Bos taurus with 28 samples.

Results

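Luminal epithelial cells line the ducts and alveoli of the mammary gland, and 9 genes that mark them were followed here: the keratins KRT7, KRT8, KRT18 and KRT19, the adhesion proteins EPCAM and CDH1, and the tight junction proteins CLDN1, CLDN3 and OCLN. Members were taken as every probe set, a group of short oligonucleotides for 1 transcript, to which the platform annotation gives exactly 1 of these symbols. By that rule 8 of the 9 genes were measured by 10 of the 24016 probe sets tested, and OCLN, occludin, was not analysed here because no probe set carried its symbol alone.

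The samples were surgical mammary biopsies of 28 Holstein-Friesian cows in mid-lactation on a control diet, each on its own Affymetrix Bovine Genome Array. The cows differed in DGAT1, which encodes an enzyme of the last step of triacylglycerol synthesis: 4 cows were KK (lysine on both alleles), 13 KA and 11 AA (alanine on both alleles). A biopsy holds all cells of the tissue taken. Precision is limited by how many cows each group holds, most of all in KK. Cows of a group are named by number in the order of deposit, which is also the order of the array numbers that end the titles.

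Keratins of the simple epithelia form filaments from pairs of an acidic and a basic chain, with KRT18 and KRT19 acidic and KRT7 and KRT8 basic, and KRT8 with KRT18 is the usual pair of secretory cells. CDH1, E-cadherin, joins neighbouring cells through the catenins, and EPCAM is a further adhesion protein of epithelial membranes. Claudins and occludin form the tight junction, which in the lactating gland keeps milk and the fluid between cells apart. In the RefSeq annotation KRT18 and KRT8 are neighbours with only 1 listed gene between them, which is not protein-coding, and KRT7 is on the same chromosome.

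All values are log2 values with a baseline of each probe set already subtracted, so a difference between cows can be read for 1 probe set but the levels of 2 probe sets cannot be compared. A coarse class of brightness was recovered from the rounding of the values. KRT7, KRT19, EPCAM, CLDN3 and the first CDH1 probe set were in the bright class, with log2 signals of about 8 or more. KRT18, both CLDN1 probe sets and the second CDH1 probe set were intermediate. KRT8 was in the dim class, below about 4, where 6975 of the 24016 probe sets lie, so its signal was low. Of the 8 measured luminal markers 7 were above the dim class, and their relations to markers of other cell types are given with the correlations. In bulk tissue a lower value can mean fewer cells of a type or less RNA per cell, and these cannot be told apart.

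2 AA arrays stood apart from the other 26: AA 2 and AA 9, whose titles end in array numbers 33 and 43. Over all probe sets AA 2 had an SD of 0.86 and AA 9 one of 0.78, whereas the other arrays had SDs between 0.21 and 0.35. These 2 arrays were singled out by measured values, so what follows on them is a description with no test. As background, both lay above the other 26 arrays for 18.4% of all probe sets and both lay below them for 17.7%.

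KRT18, KRT7, EPCAM and CDH1 by its first probe set were higher in AA 2 and AA 9 than in every other array, at 2.54-fold to 7.77-fold of the median of the 26, while KRT8 and CLDN3 lay inside the range of the others. CLDN1, KRT19 and the second CDH1 probe set were above the range in AA 9 but not in AA 2. In all, both arrays were above the other 26 for 4 of the 10 member probe sets (18.4% of all probe sets) and below them for 0 of 10 (17.7% of all). Over the 8 genes the median of the pair's mean minus the median of the 26 was 1.41 on the log2 scale, against -0.07 over all probe sets.

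Among the acidic keratins, KRT18 had a log2 value of 2.32 in AA 2 and 2.98 in AA 9, while the other 26 arrays spanned -1.44 to 1.44 with a median of 0.02. These are 4.92-fold and 7.77-fold of that median, and both arrays stood clear of the next one, KA 5. KRT18 was also among the most variable probe sets within the 26 themselves: its SD of 0.87 exceeded that of 99.5% of all probe sets, and its range spanned 7.37-fold. KRT19, a keratin of simple epithelia that lacks the usual tail domain, had 0.21 in AA 2 and 0.75 in AA 9, while the others spanned -1.10 to 0.68 with a median of 0.06. AA 9 exceeded the highest of the 26, AA 10, by only 0.06, and AA 2 was within the range.

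Among the basic keratins, KRT7, a keratin of ducts and glands, had 1.74 in AA 2 and 1.67 in AA 9, while the others spanned -0.78 to 0.83 with a median of 0.12. Both were about 3-fold of that median (3.07-fold and 2.93-fold), and neither overlapped the others. KRT8 had 0.12 in AA 2 and -0.39 in AA 9, while the others spanned -0.66 to 0.57 with a median of -0.04. The basic partner of KRT18 thus lay inside the range of the others in both arrays, and its probe set is the dim one.

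Of the adhesion genes, EPCAM and the first CDH1 probe set were high in both arrays. EPCAM had 1.43 in AA 2 and 1.22 in AA 9, while the others spanned -0.50 to 0.53 with a median of -0.12, which is 2.94-fold and 2.54-fold. The first CDH1 probe set had 2.49 in AA 2 and 1.85 in AA 9, while the others spanned -0.74 to 0.79 with a median of 0.19, which is 4.93-fold and 3.16-fold. The 2 probe sets of E-cadherin did not give the same picture, since the second had -0.08 in AA 2 and 1.47 in AA 9, while the others spanned -0.66 to 0.69. AA 2 is thus the highest of all arrays by the first probe set and in the middle of them by the second.

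Of the claudins, CLDN1, a sealing claudin of many epithelia, was high in AA 9. Its first probe set had 0.47 in AA 2 and 2.36 in AA 9, while the others spanned -1.06 to 1.16 with a median of 0.05, and AA 9 was 4.95-fold of that median. The second had -0.32 in AA 2 and 1.76 in AA 9, while the others spanned -0.61 to 1.07. CLDN3, a claudin of luminal cells, had -0.10 in AA 2 and 0.02 in AA 9, while the others spanned -0.39 to 0.72 with a median of 0.27.

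AA 9 and AA 2 thus differed for several members: AA 9 exceeded all 26 other arrays for 8 of the 10 probe sets (26.6% of all probe sets) and AA 2 for 4 of 10 (26.5% of all). The wide spread of both arrays enters these counts. With all arrays forced to 1 distribution by quantile normalization, which gives each the same SD of 0.31, both lay above the others for 0 of the 8 genes and for 2.19% of all probe sets. KRT18 was then 0.80 in AA 2 and 1.34 in AA 9, while the other 26 spanned -1.41 to 1.16, and CDH1 was 0.91 in AA 2 and 0.67 in AA 9, where the others spanned -0.56 to 0.74. KRT18 and CLDN1 remained highest in AA 9 and CDH1 in AA 2, with the other array inside the range. Centring each array on its median left the count at 4 of 8.

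**Figure D1:**
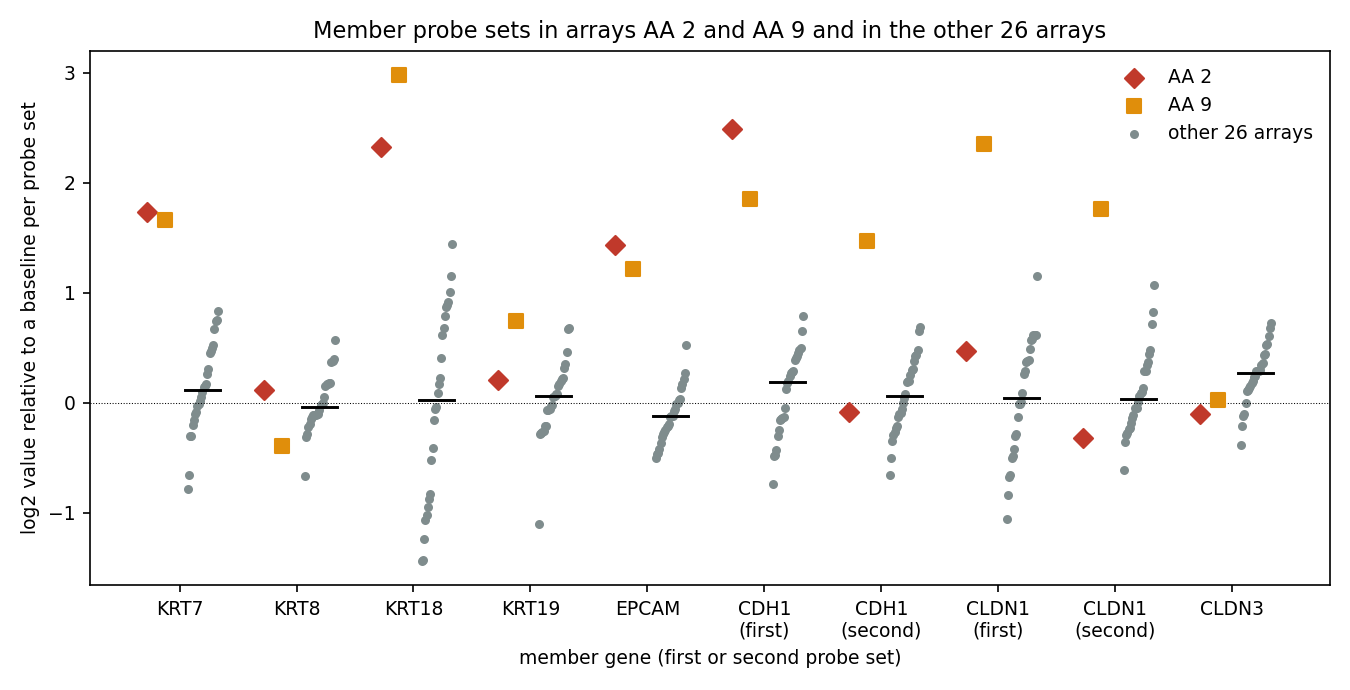
Log2 value relative to a baseline per probe set (vertical axis) for the 10 member probe sets (horizontal axis), with AA 2 (red diamonds), AA 9 (orange squares) and the other 26 arrays (grey points, black line at their median). KRT7, KRT18, EPCAM and the first CDH1 probe set have both coloured points above all grey ones, while KRT8 and CLDN3 have both among them.

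The 2 probe sets of CDH1 and of CLDN1 were set beside a control of transcript ends, a check chosen after their values were seen. The array carries GAPDH probe sets at the 3′ and 5′ ends of the transcript, and the difference of their signals is a common measure of RNA integrity and labelling. Here each control probe set also had its baseline removed. Its 3′ minus 5′ difference can thus be compared between arrays, but its sign does not show which end had more signal. The GAPDH 3′ minus 5′ difference was 1.33 in AA 2, above all 26 others, and -0.66 in AA 9, below all of them. The others ran from -0.59 to 0.97, with AA 11 at the top and the next, KK 3, at 0.25. The same difference for actin did not set them apart, at -0.14 in AA 2 and -0.21 in AA 9, while the others spanned -0.28 to 0.46.

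The first CDH1 probe set minus the second was 2.58 in AA 2 and 0.38 in AA 9, while the others spanned -0.47 to 1.13. Here too AA 11 was the highest of the 26 and KK 3 the next, at 0.68. Over the 26 arrays this CDH1 difference correlated with the GAPDH difference at r = 0.69 (two-sided permutation test, p = 0.00124, adjusted p = 0.00248 over 6 relations), but rho was 0.28 (permutation p = 0.159, adjusted p = 0.317). Without AA 11 and KA 2, the arrays farthest from the median, r was 0.35, so the relation rests on those arrays. Within array numbers 29 to 42 r was 0.63 and within 43 to 56 it was 0.74. The actin difference gave no such relation, with r = -0.23 (adjusted permutation p = 0.300) and rho = -0.11. Its r with the CDH1 difference was 0.27 within 29 to 42 and -0.76 within 43 to 56.

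For CLDN1 the first minus the second probe set was 0.79 in AA 2 and 0.59 in AA 9, while the others spanned -0.92 to 0.91. Its r with the GAPDH difference was 0.42 (permutation p = 0.039, adjusted p = 0.0586) and its rho 0.07. The first and second probe sets of a gene correlated over the 26 arrays, with r = 0.60 for CDH1 (permutation p = 0.00105, adjusted p = 0.00248) and 0.68 for CLDN1 (permutation p = 1e-04, adjusted p = 6e-04), and rho of 0.58 and 0.56. Without the 2 arrays farthest from the median these r were 0.52 and 0.61. The part of RNA integrity in the high first CDH1 value of AA 2 was not tested.

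**Figure D2:**
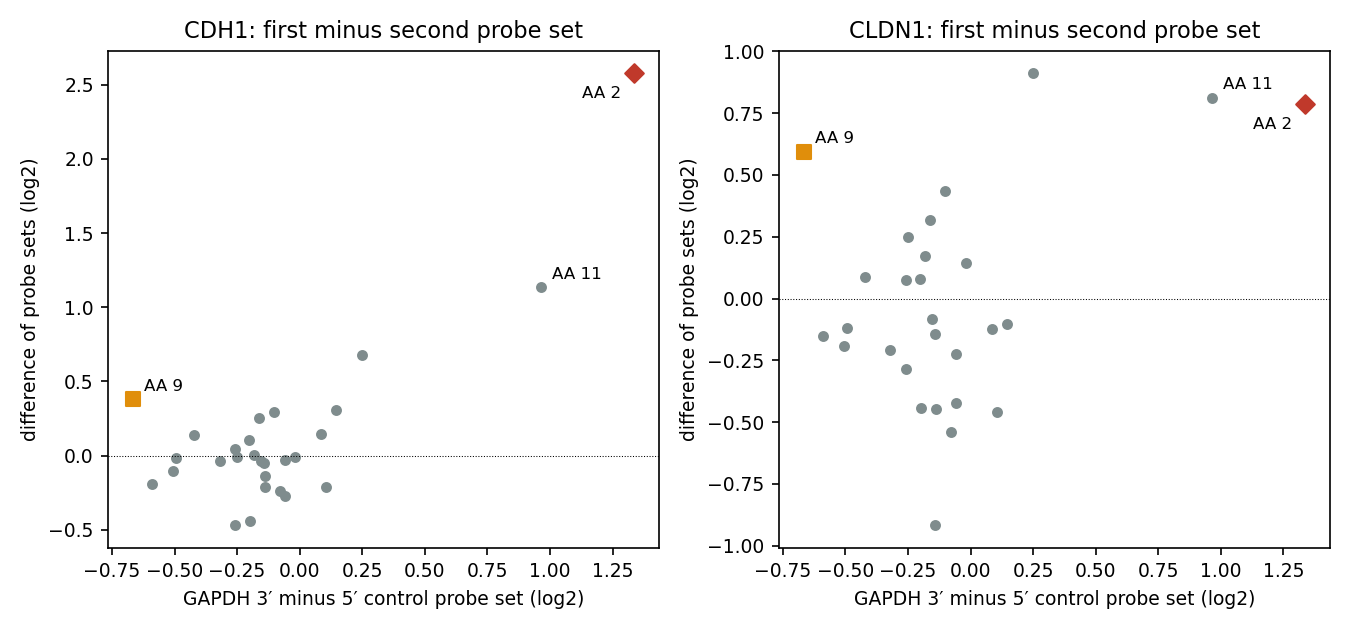
First minus second probe set of CDH1 (left) and CLDN1 (right), in log2 units, against the difference of the GAPDH 3′ and 5′ control probe sets, 1 point an array. AA 2 is at 1.33 on the horizontal axis and 2.58 on the vertical axis for CDH1, with AA 11 the next along both axes, and AA 9 is at the far left.

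Markers of other cells moved in the same 2 arrays, where 18.4% of all probe sets lay above in both and 17.7% below. Genes of the milk-secreting epithelium, such as caseins and milk fat proteins, averaged -1.95 in AA 2 and -2.80 in AA 9, while the others spanned -0.30 to 0.14, and 13 of the 14 lay below all 26 arrays in both. Fibroblast genes averaged 1.22 and 1.67, against -0.55 to 0.47, with 8 of 9 above in both and 1 of 9 below in both. Myoepithelial genes, of the contractile cells around the alveoli, averaged 0.59 and 0.95, against -0.53 to 0.64, with 4 of 9 above in both. T cell genes averaged 0.83 and 1.12, against -0.40 to 0.73, with 3 of 7 above in both. The members averaged 1.09 in AA 2 and 1.31 in AA 9, while the others spanned -0.56 to 0.51. This mean was on the opposite side from that of the milk genes, but not every member was. CLDN3 lay below the median of the others in both arrays. KRT8 in AA 9 and the second CDH1 and second CLDN1 probe sets in AA 2 also lay below their medians.

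The other lists were mixed (over all probe sets 18.4% lay above in both arrays and 17.7% below). Both arrays were above the others for 2 and below for 1 of 4 B and plasma cell genes, above for 1 and below for 1 of 5 myeloid genes, and above for 0 and below for 1 of 8 endothelial, 1 of 4 adipocyte and 2 of 4 red blood cell genes. 3 of the 4 adipocyte and 4 of the 4 red blood cell probe sets were in the dim class. The part of other cell types in the members' values was not tested.

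**Figure D3:**
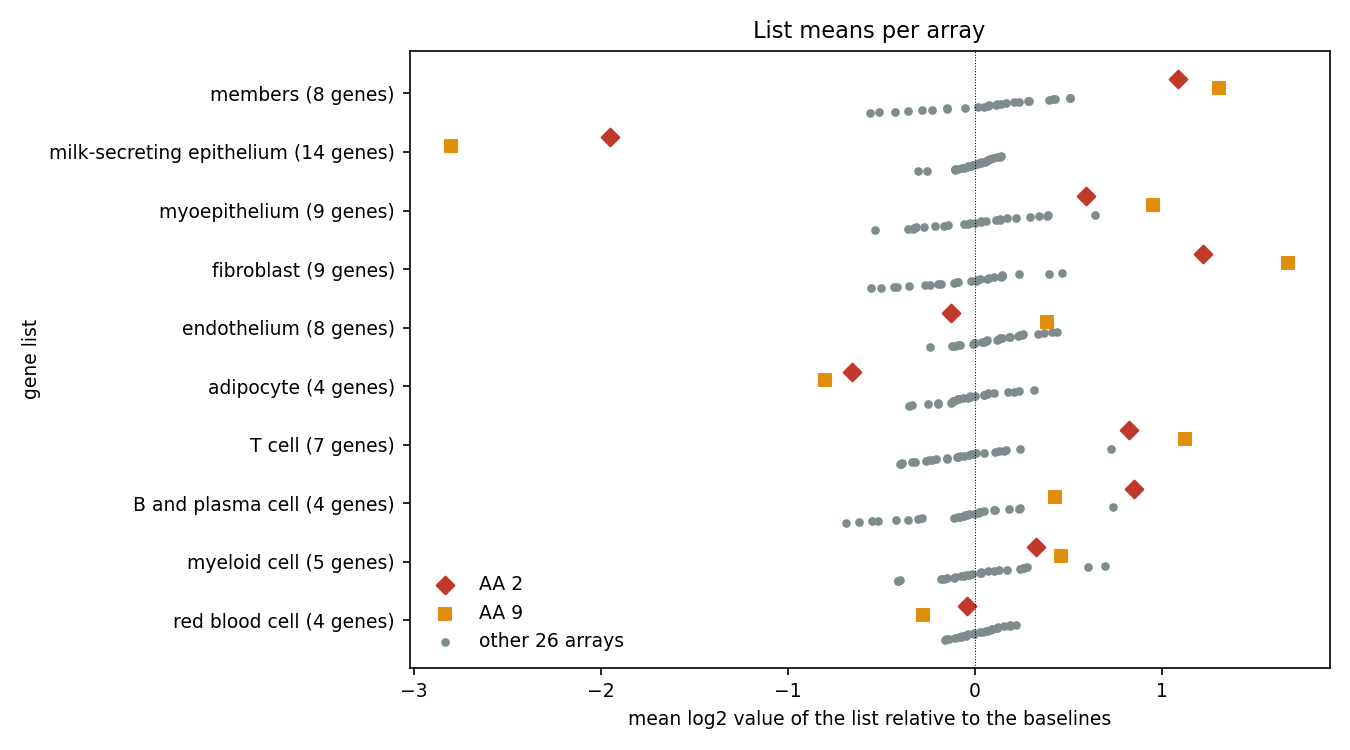
Mean log2 value relative to the baselines (horizontal axis) of the 8 members and of 9 cell type lists (rows), with AA 2 as red diamonds, AA 9 as orange squares and the other 26 arrays as grey points. The members average 1.09 and 1.31 in AA 2 and AA 9 and the milk-secreting genes -1.95 and -2.80, each outside the grey points.

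The wider junction and keratin genes were described in the same way, beside 18.4% of all probe sets above in both arrays and 17.7% below. Of 10 measured adherens junction and desmosome genes, 5 lay above the other 26 in both arrays and 0 below. CTNNB1, β-catenin, which binds the tail of E-cadherin, had 1.35 in AA 2 and 0.88 in AA 9, while the others spanned -0.43 to 0.28. Desmosomal genes did likewise: DSC2, a desmosomal cadherin, had 1.84 and 1.33, while the others spanned -0.67 to 0.56. PERP, a desmosome-associated membrane protein, had 1.58 and 1.51, against -0.51 to 0.69, and PKP4, a catenin-related junction protein, had 1.64 and 1.67, against -0.93 to 0.52.

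Of 13 measured tight junction genes besides the members, 5 lay above in both arrays and 2 below (18.4% and 17.7% of all probe sets). The count below is near its share. CLDN4, a further claudin, had 1.48 in AA 2 and 1.47 in AA 9, while the others spanned -0.62 to 0.86. LSR, a protein of the corners where 3 cells meet, had 0.92 and 0.83, against -0.40 to 0.57. TJP3, a scaffold that binds claudin tails, lay below, with -2.25 and -2.79, against -0.52 to 0.81.

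Of 8 other keratins, 2 lay above in both arrays and 3 below (18.4% and 17.7% of all probe sets). The count above is near its share. The 2 above are the basal pair KRT14 and KRT5: KRT14 had 2.19 in AA 2 and 5.08 in AA 9, while the others spanned -0.36 to 1.99, and KRT5 had 1.36 and 1.34, against -0.80 to 0.74. KRT10, an acidic keratin of stratified epithelia, had -1.40 and -1.47, against -0.98 to 0.51. Of 15 other luminal genes 1 lay above in both arrays and 5 below. Among them MUC1, the mucin of the luminal cell surface, had -3.92 and -5.02, against -0.26 to 0.73, and ELF5, a transcription factor of alveolar cells, had -1.42 and -1.19, against -0.51 to 0.21. Of 7 mesenchymal genes, 4 lay above and 0 below, with VIM, the filament protein of stromal cells, at 1.18 and 1.45, against -1.23 to 0.44. KRT18, KRT7, EPCAM and the first CDH1 probe set were thus high in both arrays, beside several junction genes and stromal genes. KRT8 and CLDN3 were not, and KRT19, CLDN1 and the second CDH1 probe set were above the range in AA 9 alone. TJP3 was low among the junction genes, and MUC1 and ELF5 were low beside the milk genes. After quantile normalization 0 of the 8 members were above the others in both arrays.

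By DGAT1 genotype, no member passed the test. In limma fits over all 24016 probe sets with Benjamini-Hochberg adjustment, 0 of 8 genes had an adjusted p under 0.05 for the slope per K allele or for any of the differences KA minus AA, KK minus AA and KK minus KA (0% of all probe sets in each). Before adjustment, a limma p under 0.05 was reached by 0 of 8 genes for KK minus AA (3.51% of all probe sets), 3 for KA minus AA (21.8%), 0 for KK minus KA (2.84%) and 1 for the slope (9.16%). The 3 genes for KA minus AA were KRT18, CLDN1 and EPCAM, all lower in KA, and the gene for the slope was KRT18. Without AA 2 and AA 9 the counts were 0 for KK minus AA (2.76% of all probe sets) and 1, CLDN1, for KA minus AA (9.5%).

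KRT18 had log2 values of -1.43, -0.04, 0.62 and 0.22 in the 4 KK cows, a range of -1.44 to 1.44 with a median of -0.52 in KA cows, and a range of -1.24 to 2.98 with a median of 0.79 in AA cows. The means were -0.16 ± 0.89 in KK, -0.25 ± 0.94 in KA and 0.76 ± 1.15 in AA (SD, n = 4, 13 and 11). The 3 groups overlapped over most of their range. KK minus AA was -0.92 (SE 0.56, limma adjusted p = 0.909), -0.50 without AA 2 and AA 9, and also -0.50 without KK 1 alone. KA minus AA was -1.01 (SE 0.39, limma adjusted p = 0.172).

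The KRT18 difference between KA and AA was -0.59 (SE 0.35, limma adjusted p = 0.621) without AA 2 and AA 9, whose removal lowers the AA mean to 0.34 ± 0.72 (SD, n = 9). Array numbers split unevenly over genotypes: 29 to 42 hold 4 KK, 2 KA and 8 AA cows, and 43 to 56 hold 0 KK, 11 KA and 3 AA. Within 29 to 42 KA minus AA was -1.04, or -0.77 without AA 2, and within 43 to 56 it was -1.86, or -1.20 without AA 9. KK minus AA could be taken only within 29 to 42, where it was -0.58, or -0.30 without AA 2. The KRT18 slope was -0.59 per K allele (SE 0.27, limma adjusted p = 0.526).

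CLDN1 by its first probe set had -1.06, -0.01, 0.62 and 0.58 in KK cows, a median of -0.28 in KA cows (-0.84 to 1.16) and a median of 0.47 in AA cows (-0.65 to 2.36). KA minus AA was -0.65 (SE 0.25, limma adjusted p = 0.167), and -0.45 (SE 0.21, limma adjusted p = 0.509) without AA 2 and AA 9. Within numbers 29 to 42 it was -0.80 and within 43 to 56 it was -1.25, or -0.66 without AA 9. The second CLDN1 probe set differed less, with KA minus AA at -0.18 (SE 0.20) and -0.07 without AA 2 and AA 9. KK minus AA for the first probe set was -0.48 (SE 0.35, limma adjusted p = 0.909), and -0.11 without KK 1.

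EPCAM and the first CDH1 probe set gave smaller differences between genotypes without AA 2 and AA 9, and the second CDH1 probe set did not for KA minus AA. EPCAM had -0.26, -0.29, 0.14 and -0.08 in KK cows, a median of -0.21 in KA cows (-0.50 to 0.53) and a median of 0.02 in AA cows (-0.42 to 1.43). KA minus AA was -0.38 (SE 0.17, limma adjusted p = 0.205), and -0.13 (SE 0.11, limma adjusted p = 0.745) without AA 2 and AA 9. This EPCAM difference did not hold within both ranges of array numbers: it was -0.014 within 29 to 42, or 0.18 without AA 2, and -0.72 within 43 to 56, or -0.36 without AA 9. For the first CDH1 probe set KK minus AA was -0.56 (SE 0.35) and KA minus AA -0.49 (SE 0.25, limma adjusted p = 0.241), and without AA 2 and AA 9 these were -0.20 and -0.13. For the second CDH1 probe set KA minus AA was 0.02 (SE 0.17), and 0.14 (SE 0.14) without AA 2 and AA 9.

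The other members were read by their group means. KRT7 averaged 0.20 ± 0.38 in KK, 0.08 ± 0.47 in KA and 0.47 ± 0.70 in AA cows (SD), and without AA 2 and AA 9 the AA mean was 0.19 ± 0.38. Its KA minus AA was -0.39 (SE 0.22, limma adjusted p = 0.279), and -0.12 without AA 2 and AA 9. KRT19 averaged 0.11 ± 0.26 in KK, -0.0002 ± 0.20 in KA and 0.13 ± 0.53 in AA, and its lowest array by far was AA 1 at -1.10. KRT8 averaged -0.02 ± 0.23, -0.02 ± 0.33 and 0.01 ± 0.20 in KK, KA and AA. CLDN3 averaged 0.07 ± 0.34 in KK, 0.30 ± 0.22 in KA and 0.19 ± 0.29 in AA, the only gene whose representative probe set had a higher mean in KA than in AA.

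Over the 8 genes the median of KK minus AA was -0.30, with 8 of 8 lower in KK, and that of KA minus AA was -0.38, with 7 of 8 lower in KA. Over all probe sets these medians were 0.01 and 0.02, with 47.8% and 45.5% lower. Without KK 1 the members' median of KK minus AA was -0.16, and with array weights it was -0.14. Without AA 2 and AA 9 the members' medians were -0.13 (6 of 8 lower) and -0.12 (7 of 8 lower). KK minus KA had a median of 0.07. KK minus AA and KA minus AA share the AA cows, so they are not separate evidence.

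Markers of other cells were set beside them. Fibroblast genes averaged -0.33 ± 0.18 in KK, -0.07 ± 0.20 in KA and 0.33 ± 0.62 in AA cows (SD), or 0.08 ± 0.29 in AA without AA 2 and AA 9. At an unadjusted limma p under 0.05, 5 of 9 fibroblast genes and 0 of 8 members passed for KK minus AA (3.51% of all probe sets). The members' count is near that share, and 0 of either list passed after adjustment. Myoepithelial genes averaged -0.16 ± 0.34 in KK, -0.01 ± 0.18 in KA and 0.23 ± 0.43 in AA, or 0.11 ± 0.36 in AA without AA 2 and AA 9. The median of KK minus AA over the 9 myoepithelial genes was -0.38, with 9 of 9 lower in KK (47.8% of all probe sets). Of these, 3 had an unadjusted limma p under 0.05 (3.51% of all probe sets) and 0 passed after adjustment. Milk-secreting genes averaged 0.05 ± 0.10 in KK, 0.01 ± 0.11 in KA and -0.47 ± 0.96 in AA, or -0.05 ± 0.10 in AA without AA 2 and AA 9. Their part in the members' differences was not tested.

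**Figure D4:**
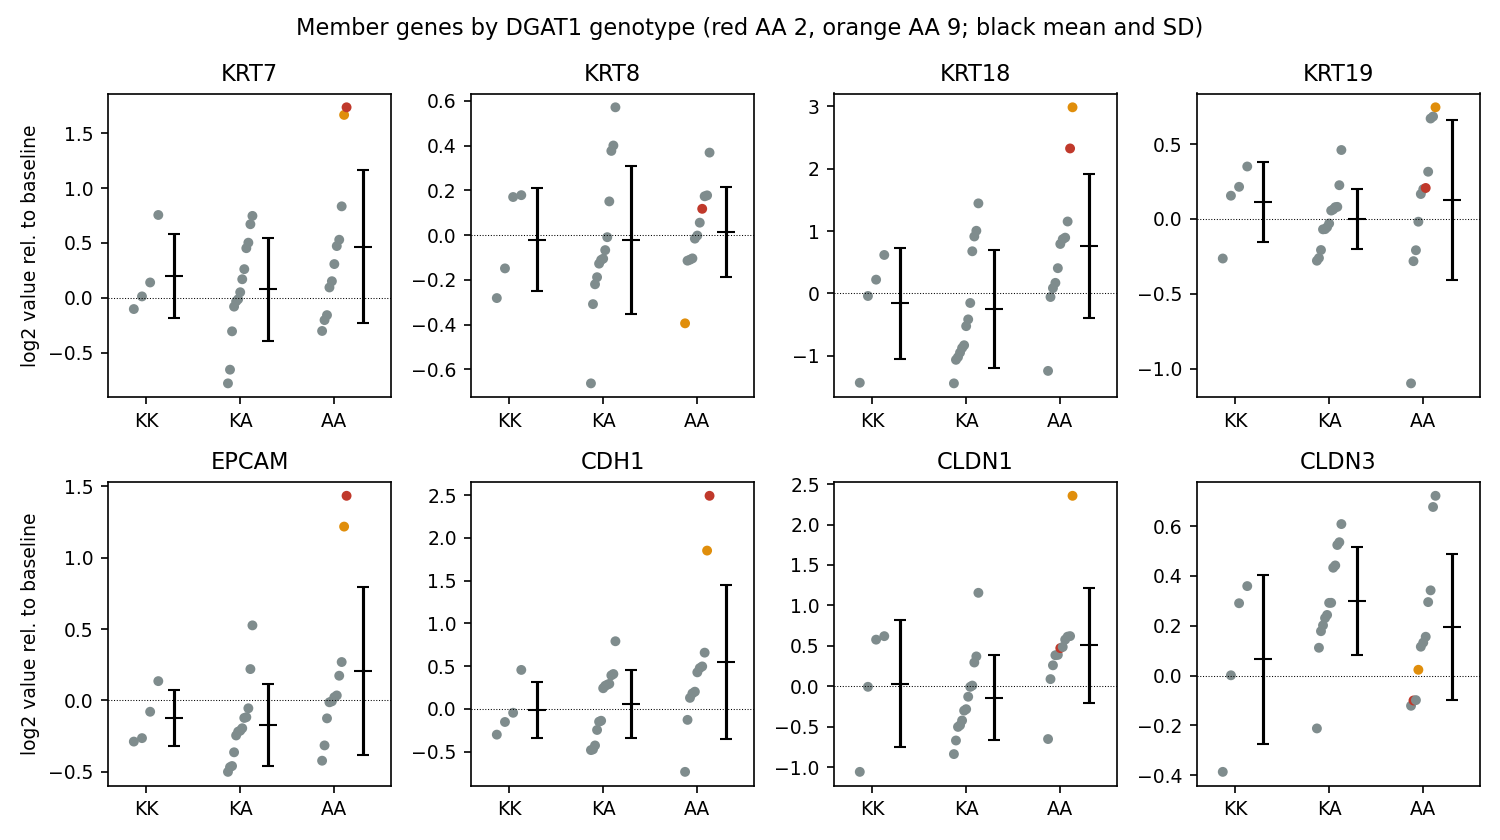
Log2 value relative to the baseline (vertical axes, which differ in scale) of the 8 measured members in KK, KA and AA cows, 1 point a cow, with the mean and SD beside each group in black. AA 2 is red and AA 9 orange, and the highest AA values of KRT7, KRT18, EPCAM and CDH1 are these 2 arrays.

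The other genes of these structures gave no call by genotype either, with 0 genes at an adjusted p under 0.05 in any of the lists for KK minus AA or KA minus AA. At an unadjusted p under 0.05, KA minus AA had 1 of 13 tight junction genes, 5 of 10 adherens junction and desmosome genes and 4 of 8 other keratins (21.8% of all probe sets). KK minus AA had 1, 0 and 2 of the same lists (3.51% of all probe sets).

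Over the 26 arrays other than AA 2 and AA 9 KRT7, KRT18, KRT19, EPCAM, CDH1 and CLDN1 correlated in most of their pairs, while KRT8 and CLDN3 did so with 0 of the others. Of the 28 pairs of members 12 (42.9%) correlated past an adjusted permutation p of 0.05, all 12 positively and all 12 also by rank. KRT18 with KRT19 (r = 0.37, adjusted permutation p = 0.115), KRT19 with CLDN1 (r = 0.37, adjusted permutation p = 0.115) and KRT7 with CLDN1 (r = 0.35, adjusted permutation p = 0.134) did not pass. The smallest r among the 12 was 0.48, a value that 7.82% of the probe sets outside the members reached with a member on average. This share was lowest with KRT8 at 0.721%, 3.45% with CLDN3, and highest with CDH1 at 12.9%. For KRT8 and CLDN3 a count of 0 partners is near these shares.

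CDH1, by its first probe set, had 5 such partners, as did EPCAM. CDH1 correlated with KRT18 at r = 0.82 and rho = 0.79, with KRT7 at r = 0.81 and rho = 0.83, with EPCAM at r = 0.71 and rho = 0.79, with CLDN1 at r = 0.65 and rho = 0.67, and with KRT19 at r = 0.64 and rho = 0.62. For KRT18 and KRT7 the two-sided permutation p of r was 1e-05, the smallest that 100000 resamples can give, and 1.4e-04 after adjustment over the 28 pairs. For EPCAM, CLDN1 and KRT19 the adjusted permutation p of r was 3.5e-04, 0.00208 and 0.00159. Among 24015 other probe sets CDH1 ranked 21st by its r with KRT18 and 6th by its r with KRT7. In the other direction, by r with CDH1, KRT18 ranked 90th and KRT7 141st.

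The CDH1 pairs stayed positive when arrays were left out or split. Without the 2 arrays farthest from the median, r with CDH1 was 0.79 for KRT18, 0.76 for KRT7, 0.78 for EPCAM and 0.61 for CLDN1. For KRT19 it fell from 0.64 to 0.50 without AA 1 and AA 10. Within array numbers 29 to 42 and 43 to 56 r was 0.70 and 0.91 for KRT18 and 0.82 and 0.83 for KRT7. It was 0.70 and 0.79 for EPCAM, 0.67 and 0.63 for CLDN1, and 0.72 and 0.56 for KRT19. Taken from the genotype means, the residuals gave r of 0.82 for KRT18 and 0.82 for KRT7. With the mean of both CDH1 probe sets r was 0.68 for KRT18 and 0.75 for KRT7.

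CLDN1 went with KRT18 (r = 0.76, rho = 0.71, adjusted permutation p of r = 1.87e-04), and r was 0.91 and 0.68 within the lower and upper array numbers. KRT7 went with EPCAM (r = 0.67, rho = 0.68, adjusted permutation p = 0.00123), with KRT18 (r = 0.59, rho = 0.56, adjusted permutation p = 0.00497) and with KRT19 (r = 0.54, rho = 0.61, adjusted permutation p = 0.0145). EPCAM also passed with KRT19 (r = 0.51, rho = 0.55, adjusted permutation p = 0.0227), with KRT18 (r = 0.49, rho = 0.58, adjusted permutation p = 0.0267) and with CLDN1 (r = 0.48, rho = 0.63, adjusted permutation p = 0.0297). Within the lower array numbers r of EPCAM was 0.25 with KRT18 and 0.28 with CLDN1, and within the upper ones 0.73 and 0.72.

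KRT8 and KRT18, whose proteins pair in the filament, showed no such relation, with r = 0.11 and rho = 0.04 (permutation p = 0.586, adjusted p = 0.631 for r). By its r with KRT18, KRT8 ranked 8508th of 24015 probe sets, and its probe set is in the dim class. CLDN3, which is bright, passed with 0 of the other 7 members, with r from -0.19 with KRT8 to 0.38 with KRT18. Of the probe sets outside the members 3.45% reached an r of 0.48 with CLDN3, so this count is near that share. CLDN3 and the other claudin, CLDN1, had r = 0.27.

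**Figure D5:**
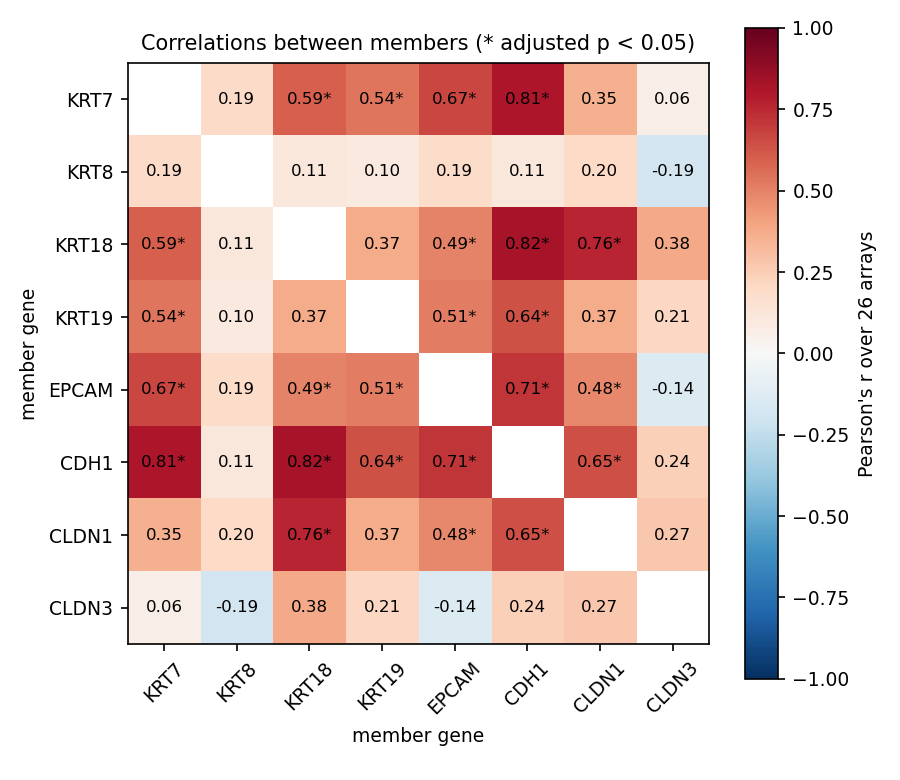
Pearson's r between the representative probe sets of the 8 measured members over the 26 arrays other than AA 2 and AA 9, by colour from -1 (blue) to 1 (red), with a star where the permutation p adjusted over 28 pairs is under 0.05. CDH1 has 5 starred partners and KRT8 and CLDN3 have 0.

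The genes most like each member over these 26 arrays were taken by the rank of r alone. For KRT18 they were S100A13 (r = 0.88) and HSPB8 (r = 0.87), for CDH1 HK1 (r = 0.91) and HSPB8 (r = 0.91), and for EPCAM RGN (r = 0.89) and RNF20 (r = 0.87). For CLDN1 they were WLS (r = 0.88) and GSPT2 (r = 0.87), and for KRT7 HSPA4 (r = 0.82) and NEK6 (r = 0.82). For KRT19 they were PLAGL1 (r = 0.81) and HSPB1 (r = 0.78), for CLDN3 ENG (r = 0.76) and SPRYD3 (r = 0.75), and for KRT8 MED11 (r = 0.71) and AP5S1 (r = 0.68). These are the highest values over all named genes and are given with no test. In the arrays left out S100A13 had 2.14 in AA 2 and 2.68 in AA 9, HSPB8 had 1.23 in AA 2 and 0.44 in AA 9, and ENG had -1.69 in AA 2 and 0.16 in AA 9.

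Each of the 8 members was also set against the mean of the 9 cell type lists over the same 26 arrays. These 72 relations were chosen after the values were seen. Of them 26 relations passed an adjusted permutation p of 0.05 for r, 16 of these positive, and 23 also passed by rank. The share of other probe sets that reach such r with these lists was not computed. The count is thus not read as a result about the members, and only part of these relations is named. CDH1 followed the fibroblast genes (r = 0.74, rho = 0.67, adjusted permutation p = 7.2e-04) and the myoepithelial genes (r = 0.61, rho = 0.62, adjusted permutation p = 0.0102). KRT19 followed the myoepithelial genes (r = 0.65, rho = 0.62, adjusted permutation p = 0.00756), and within the lower and upper array numbers r was 0.57 and 0.87. KRT18 followed the myeloid genes (r = 0.63, rho = 0.64, adjusted permutation p = 0.00756), with r of 0.35 and 0.81 in the lower and upper numbers. CLDN1 followed the T cell genes (r = 0.61, rho = 0.66, adjusted permutation p = 0.0102), with r of 0.53 and 0.83 in the lower and upper numbers.

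EPCAM ran against the milk-secreting genes (r = -0.57, rho = -0.51, adjusted permutation p = 0.0146), and r was -0.52 and -0.61 within the lower and upper numbers and -0.39 without AA 10 and KA 2. EPCAM was the only member that passed with this list. The other members had r that was negative except for CLDN3, at 0.17. KRT18 had r = -0.66 with the adipocyte list, in which 3 of 4 probe sets are dim and FABP4 is bright. With the red blood cell list, in which 4 of 4 are dim, it had r = -0.55. The red blood cell list also passed for CDH1 (r = -0.60), KRT7 (r = -0.57) and CLDN1 (r = -0.52). Their adjusted permutation p was 0.0102, 0.0128 and 0.0276. The part of array processing in these relations was not tested. Like CDH1, EPCAM and KRT18 were higher where fibroblast genes were higher, with r = 0.58 for EPCAM and 0.57 for KRT18 (adjusted permutation p = 0.0128 for each). CLDN1 also passed with the fibroblast genes (r = 0.55, adjusted permutation p = 0.0152). KRT7 and KRT19 passed by r (r = 0.46, adjusted permutation p = 0.0493 for each) but not by rank. KRT8 and CLDN3 did not pass.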

How the data were processed

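Each of the 28 arrays measured 1 cow. The authors deposited 1 log2 value for each probe set and array. Bioconductor 2.7 and R 2.13 are named in the labels' protocols, and RMA with GCRMA in the submitters' processing notes; no source used here says which produced the table. Values centre near 0, which means that each probe set had its own baseline removed before deposit, and the sources do not describe how. The 112 control probe sets were left out of the tests. Brightness classes were read from the rounding steps of the values (bright from 8, dim below 4, in log2) and were tested on simulated data.

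Of 24016 probe sets, 13292 had 1 symbol, 86 several and 10638 none; symbols were updated through RefSeq (ARS-UCD2.0), which held 13263. A gene with several probe sets was represented by the brightest class, then by the plainest type. limma 3.58.1 (R 4.3.3) fitted 1 mean per genotype, and a slope on the number of K alleles, with Benjamini-Hochberg adjustment over all probe sets. Correlations used 26 arrays, Pearson's r, Spearman's rho and two-sided permutation tests of 100000 resamples, adjusted over each family. The family of member pairs was planned with OCLN, but OCLN had no probe set with its symbol alone, so the family held 28 pairs. No source used here says if array numbers follow batches.

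The rule for named genes took all members, up to 4 genes of each other list with the largest gap of AA 2 and AA 9 from the median of the others, and the 2 genes most like each member. Members and lists were chosen with earlier results of these data known. Alternatives were quantile normalization, centring, robust variances, array weights, a block for the range of the array number, leaving out AA 2 and AA 9, only the groups compared, leaving out dim probe sets, the mean of a gene's probe sets and leaving out each KK cow.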

Additional observations from a re-analysis of the deposited data

How the results depend on the processing

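The number of members past the adjusted threshold was 0 in each genotype comparison under each alternative run. KRT8 has no value without dim probe sets. Over all probe sets KA minus AA had 0 calls in the fit reported, 47 after quantile normalization, 104 with array weights, 5 without dim probe sets, 5 without KK 3 and 1 without AA 2 and AA 9 with the array number block, and KK minus KA had 3 with array weights. None of these was a member. The count of genes high in both AA 2 and AA 9 was 4, and 0 after quantile normalization, which by construction gives each array the same spread. Of the 28 member pairs, 8 to 13 passed under the alternatives, against 12.

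Of 190 single-gene differences under alternatives 14 turned sign, and 0 of those passed the threshold. For KK minus AA, KRT7 was 0.0097 without AA 2 and AA 9 and 0.0016 with the block as well. KRT19 was 0.049 after quantile normalization, 0.074 with the block, 0.066 without AA 2 and AA 9 and 0.12 with both. Leaving out each KK cow in turn gave -0.10 to 0.053 for KRT8, -0.090 to 0.11 for KRT19, -1.18 to -0.50 for KRT18, -0.67 to -0.11 for CLDN1 and -0.23 to 0.022 for CLDN3. For KA minus AA, KRT8 was 0.081 with the block and 0.017 without AA 2 and AA 9 as well, and CLDN3 was -0.11 and -0.24. The cause of these changes was not tested. The block combined with leaving out AA 2 and AA 9 was chosen after seeing the data. With 4 KK cows the SE of KK minus AA for KRT18 was 0.56 beside a difference of -0.92, and the KRT8 probe set is in the dim class.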
